A study of Mus musculus with 8 samples.

Results

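The JmjC histone lysine demethylases are oxygen-dependent chromatin enzymes, and transcripts of 10 of their genes (Kdm2a, Kdm2b, Kdm3a, Kdm3b, Kdm4a, Kdm4b, Kdm4c, Kdm5a, Kdm5b and Kdm6b) were followed in mouse embryonic fibroblasts lacking VHL, FIH or both. The genes were taken by name, and all 29 probe sets that the platform's annotation gave to 1 of them alone were used. They are 10 of the 18193 genes with such a probe set and 10 of the 11564 genes that could be tested. Total RNA of 8 fibroblast samples was hybridized to Affymetrix Mouse Genome arrays, 1 array per sample and 2 samples per group. The groups were VHL/FIH null, VHL null, FIH null and wild type, all immortalized with large T antigen and grown at 21% oxygen. The null cells were made by infecting lines named VHLdf/FIHdf, VHLdf and FIHdf with an adenovirus that carries Cre recombinase. Each genotype therefore came from a line of its own, so genotype and line cannot be told apart, and the sources used here do not say whether wild-type cells received the virus. The labels call the 2 samples of a group biological replicates without saying that they came from separate embryos or cultures, so every p-value below measures only the spread between these samples, which may be technical.

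JmjC demethylases remove methyl groups from histone lysines with iron, 2-oxoglutarate and molecular oxygen as cofactor and cosubstrates. The KDM3 and KDM4 enzymes act mainly on methylated lysine 9 of histone H3, KDM4A to KDM4C also on lysine 36, the KDM5 enzymes on lysine 4, KDM2A and KDM2B mainly on lysine 36, and KDM6B on lysine 27. VHL is the substrate receptor of the ubiquitin ligase that removes HIF-α subunits hydroxylated by the prolyl hydroxylases. FIH, encoded by Hif1an, is itself a JmjC-domain oxygenase and hydroxylates an asparagine of HIF-α that governs its contact with the coactivators p300 and CBP. KDM3A, KDM4B, KDM4C and KDM5B are known as genes that hypoxia and HIF can induce, mostly from work on human cells.

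The values are MAS5 signals, linear brightness summaries of each probe set, which the authors had scaled to a common trimmed mean of 2500.01 on every array. A probe set was tested when its signal exceeded 291, the median over all arrays, on at least 2 arrays. The Vhl probe set averaged 979 ± 116 in VHL/FIH null, 731 ± 33.2 in VHL null, 3480 ± 76.5 in FIH null and 3294 ± 36.0 in wild-type cells (SD, n = 2 each). For Hif1an the means were 1286 ± 166 in VHL/FIH null, 2033 ± 170 in VHL null, 1691 ± 21.7 in FIH null and 2867 ± 206 in wild-type cells. Hif1an was thus lower in VHL null than in wild-type cells as well (log2 difference -0.49 ± 0.12 SE, limma adjusted p = 0.00886). Whether these probe sets lie inside the deleted exons is not stated in the sources used here. Of 8 fibroblast markers, 6 were above the cutoff on every array, and their summed signal was 320849 to 403588 over the 8 arrays. The summed signal of 4 epithelial markers was 931 to 1250 in VHL/FIH null, 1045 to 1312 in VHL null, 2392 to 2418 in FIH null and 2155 to 2466 in wild-type cells. This sum was lower on every VHL-deficient array than on any other, but only 1 of the 4 markers was above the cutoff on every array. Of 2 that could be tested, 1 passed as lower against wild type in each VHL-deficient group. The 4 neural markers summed to 7930 to 8258 in VHL/FIH null, 5543 to 6036 in VHL null, 7545 to 8255 in FIH null and 7840 to 8325 in wild-type cells. Against wild type, 1 of them passed as higher and 2 as lower in VHL/FIH null cells. In VHL null cells 0 were higher and 1 lower, and in FIH null cells 1 was higher and 1 lower. Macrophage, endothelial and skeletal muscle markers summed to at most 1811, 803 and 770 on any array. The part of these marker differences in the results below was not tested.

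Relative to the other transcripts on the arrays, most demethylase genes that changed in the groups without VHL were higher, a balance that turned when arrays were scaled to hybridization controls (2 higher and 4 lower in VHL/FIH null cells), and none passed in cells without FIH alone. Each gene was represented by its brightest tested probe set, chosen over all arrays without regard to genotype, and differences were tested with limma on log2(signal + 16) with Benjamini-Hochberg adjustment over all 24523 tested probe sets. In VHL/FIH null against wild-type cells, 8 of the 10 genes passed an adjusted p of 0.05. Kdm3a, Kdm5b, Kdm4b, Kdm4c, Kdm2b and Kdm6b rose, Kdm2a and Kdm4a fell, and Kdm3b and Kdm5a did not pass. Against the same wild-type arrays, 6 genes passed in VHL null cells: Kdm3a, Kdm5b, Kdm2b and Kdm4c rose, and Kdm2a and Kdm4a fell. None of the 10 passed in FIH null cells, where 1 had an unadjusted p under 0.05 in the limma test.

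These counts stand beside a broad change of the transcriptome. Of all tested genes 39% passed in VHL/FIH null against wild-type cells, 16.7% being higher and 22.3% lower, while 6 of the 10 demethylase genes were higher and 2 lower. In VHL null against wild-type cells 41.4% of all tested genes passed, 14.4% higher and 27% lower, against 4 higher and 2 lower demethylase genes. Lower calls thus outnumbered higher ones over all genes, and higher calls outnumbered lower ones among the 10. The 10 genes were chosen with earlier results of these data known, so this contrast is a description only. In FIH null against wild-type cells 5.28% passed. The median log2 difference of the 10 genes was 0.40 in VHL/FIH null cells, 0.25 in VHL null cells and 0.09 in FIH null cells, each against wild type, where the medians over all tested genes were -0.05, -0.10 and 0.00. The 3 comparisons share their wild-type arrays and are therefore not independent. In pooled RNA a lower signal from fewer expressing cells and one from less RNA per cell cannot be told apart.

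**Figure D1:**
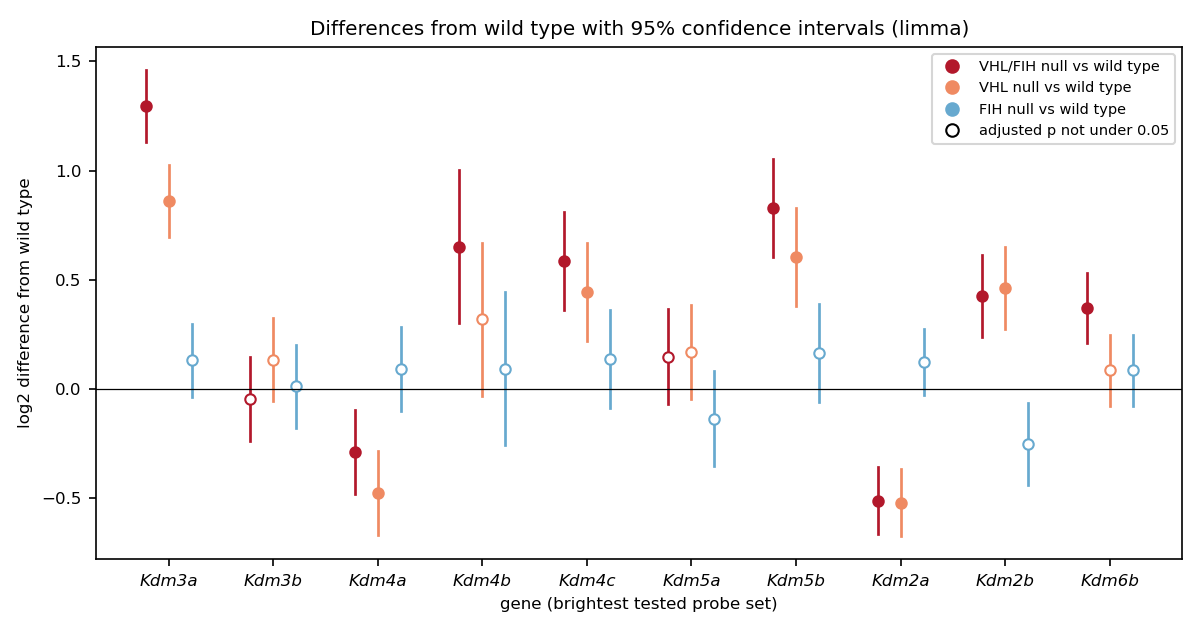
Log2 difference from wild type of the 10 demethylase genes (y axis) by gene (x axis), each by its brightest tested probe set, with 95% confidence intervals from limma as vertical lines. Red points are VHL/FIH null, orange VHL null and blue FIH null cells, and open points did not reach an adjusted p under 0.05. Kdm3a lies highest, at 1.29 in VHL/FIH null and 0.86 in VHL null cells, Kdm2a and Kdm4a lie below 0 in both, and all 10 FIH null points are open. Signals are as deposited, and with scaling to hybridization controls Kdm2b and Kdm6b turn to -0.10 and -0.15 in VHL/FIH null cells.

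One setting bears on all of these directions. The 18 hybridization control probe sets read bacterial and bacteriophage P1 transcripts added to the labelled sample in fixed amounts. They were brighter in the null groups than in wild type after the authors' scaling. Their mean log2 difference from wild type was 0.52 in VHL/FIH null, 0.38 in VHL null and 0.26 in FIH null cells. Some of the controls read cre, the recombinase gene that the adenovirus carries. Whether RNA from the virus added to their signal was not tested. Scaling the arrays to these controls instead lowered the level of every gene in the null groups by about that amount. The members then split into 2 higher and 4 lower in VHL/FIH null cells, 1 higher and 4 lower in VHL null cells and 0 higher and 2 lower, Kdm2b and Kdm5a, in FIH null cells, each against wild type. The controls are added after labelling, so neither scaling measures the amount of RNA per cell. Each direction below is relative to the other transcripts on the array unless scaling to the controls is named.

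To show the sequences at the starts of genes that rose and of one that fell, promoter windows were read from RefSeq for mouse (build GRCm38.p6), each the 250 bases before an annotated transcription start. RefSeq windows were found for 5 of the 10 genes, Kdm2b with 4 windows, Kdm3a with 3, Kdm4c with 2, and Kdm4a and Kdm5b with 1 each. The core of the hypoxia response element was searched on both strands as ACGTG or GCGTG, and its matches stand in capitals below, read 5′ to 3′ along the strand of the gene. On the opposite strand the same motifs read CACGT and CACGC, and a CACGTG palindrome holds overlapping matches on both strands. The window of Kdm3a with a match, 1 of its 3, is chr6:71632918-71633167 on the minus strand, that of Kdm4c, 1 of its 2, is chr4:74251629-74251878 on the plus strand, that of Kdm5b is chr1:134559928-134560177 on the plus strand, and that of Kdm4a, a gene that fell, is chr4:118180044-118180293 on the minus strand.
Kdm3a: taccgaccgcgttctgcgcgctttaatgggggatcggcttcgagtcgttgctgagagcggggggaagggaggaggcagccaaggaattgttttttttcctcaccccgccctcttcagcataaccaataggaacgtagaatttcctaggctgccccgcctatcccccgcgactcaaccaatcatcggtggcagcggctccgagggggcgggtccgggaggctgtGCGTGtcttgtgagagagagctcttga
Kdm4c: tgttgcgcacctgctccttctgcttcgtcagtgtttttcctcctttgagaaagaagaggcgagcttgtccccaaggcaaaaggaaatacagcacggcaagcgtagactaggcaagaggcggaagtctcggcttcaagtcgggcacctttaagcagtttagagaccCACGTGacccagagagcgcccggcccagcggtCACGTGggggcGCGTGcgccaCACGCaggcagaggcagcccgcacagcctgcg
Kdm5b: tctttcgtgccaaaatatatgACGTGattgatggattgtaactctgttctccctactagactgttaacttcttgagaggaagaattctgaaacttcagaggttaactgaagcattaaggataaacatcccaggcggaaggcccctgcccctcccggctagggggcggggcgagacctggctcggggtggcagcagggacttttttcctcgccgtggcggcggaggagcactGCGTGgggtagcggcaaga
Kdm4a: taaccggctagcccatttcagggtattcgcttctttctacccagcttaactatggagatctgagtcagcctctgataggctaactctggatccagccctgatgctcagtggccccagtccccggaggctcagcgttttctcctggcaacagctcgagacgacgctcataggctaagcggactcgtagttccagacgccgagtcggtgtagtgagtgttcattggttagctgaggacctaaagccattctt
The Kdm3a window holds 1 match, the Kdm5b window 2 and the Kdm4a window 0. The Kdm4c window holds 6, of which 4 lie in 2 CACGTG palindromes. All 4 windows of Kdm2b held at least 1 match. Among all 32851 windows of the same length 38.6% held the motif, and 7 of the 11 windows of the 5 genes did. These windows are not all separate: 2 of the Kdm2b windows overlap by 233 bases and hold the same 2 matches. Every form of the motif holds the letters CG, and the share over all windows was not matched for CG content. A match describes letters and is no evidence of binding, and a window without one says only that these letters are not in it.

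Kdm3a, the H3 lysine 9 demethylase of the KDM3 family with known roles in spermatogenesis and metabolism, changed most among the 10 genes in both VHL-deficient groups by the brightest probe sets. Its single probe set (1426810_at) read 17777 and 15717 in VHL/FIH null, 12438 and 12342 in VHL null, 7766 and 7157 in FIH null and 6949 and 6663 in wild-type cells. No group overlapped another, and the VHL/FIH null arrays were the brightest. Kdm3a was 2.45-fold higher in VHL/FIH null than in wild-type cells (log2 difference 1.29 ± 0.07 SE, limma adjusted p = 6e-07) and 1.82-fold higher in VHL null than in wild-type cells (0.86 ± 0.07, adjusted p = 1.97e-05). FIH null and wild-type cells, neighbours in this order, differed by 0.13 on the log2 scale with a 95% confidence interval of -0.03 to 0.30, and did not pass. Scaling to the hybridization controls left the direction and the call (0.77 in VHL/FIH null and 0.48 in VHL null cells).

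Kdm3b, the closest relative of Kdm3a and a demethylase of the same H3 lysine, did not pass in any of the 6 comparisons. It read 4500 and 3863 in VHL/FIH null, 4846 and 4617 in VHL null, 4233 and 4457 in FIH null and 4287 and 4321 in wild-type cells (probe set 1428320_at). The VHL/FIH null arrays lay on either side of all wild-type and FIH null values, and both VHL null arrays were above every other array. The log2 difference from wild type was -0.05 in VHL/FIH null (95% confidence interval -0.24 to 0.15) and 0.14 in VHL null cells (-0.06 to 0.33). With scaling to the hybridization controls it passed as lower in both, at -0.57 and -0.24. A second Kdm3b probe set (1458417_at) had differences of 0.30 and 0.36 in the same 2 groups and did not pass either.

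**Figure D2:**
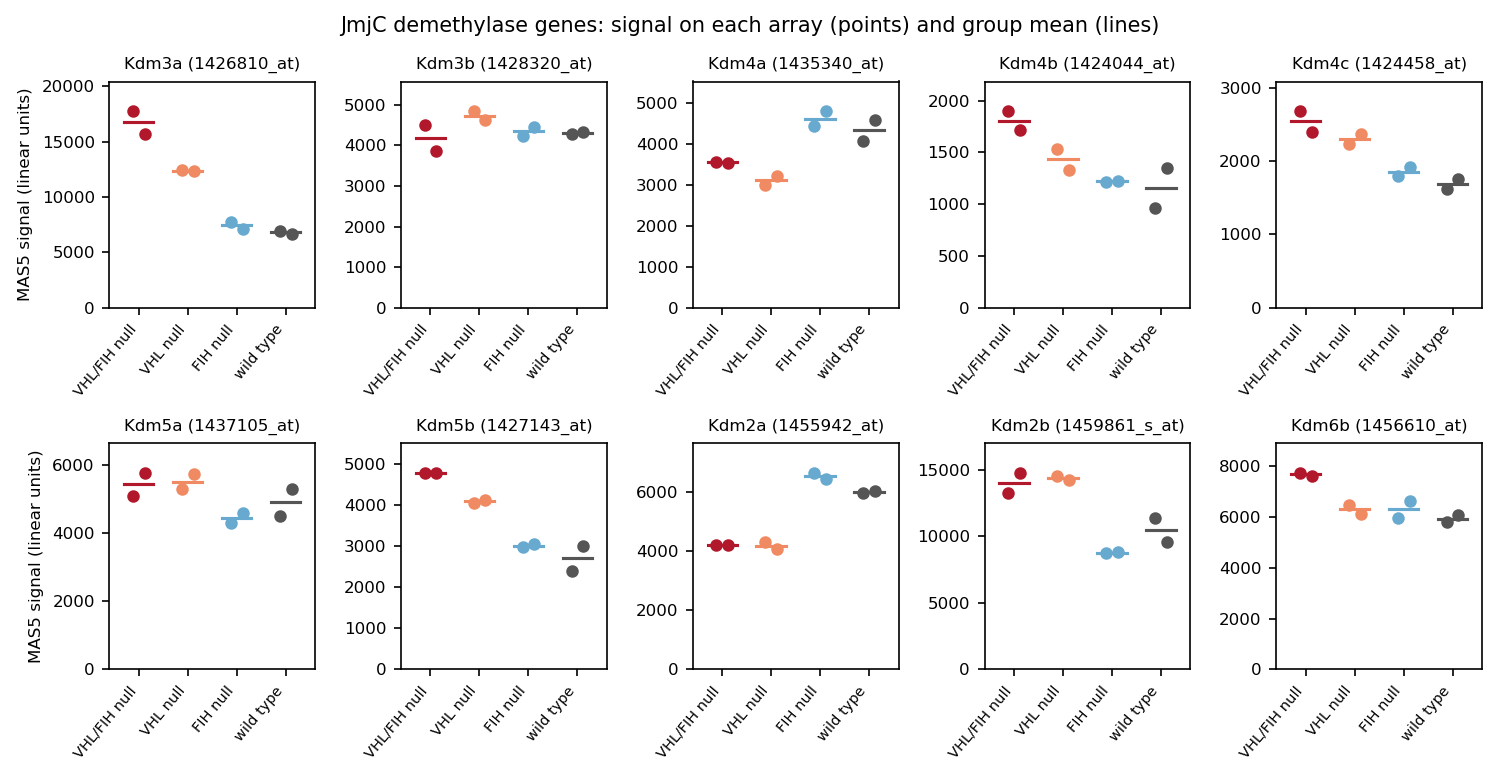
MAS5 signal (y axis, linear, from 0) of each of the 10 genes' brightest probe sets on each array (points), with the group mean as a horizontal line, for VHL/FIH null, VHL null, FIH null and wild-type cells (x axis, 2 arrays each). Kdm3a steps down over the 4 groups from a mean of 16747 in VHL/FIH null cells, Kdm5b and Kdm4c have the same order of means, and Kdm2a averages 4209 and 4185 in the 2 VHL-deficient groups against 6546 in FIH null and 6002 in wild-type cells.

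The 3 KDM4 genes, whose enzymes act on H3 lysines 9 and 36, did not move together. Kdm4c read 2683 and 2403 in VHL/FIH null, 2235 and 2366 in VHL null, 1793 and 1916 in FIH null and 1619 and 1751 in wild-type cells (1424458_at). Both VHL-deficient groups lay above both others on every array, and neighbouring groups did not differ in the limma test, apart from VHL null against FIH null, a difference that was not tested. Kdm4c rose by 0.59 ± 0.10 (SE) on the log2 scale in VHL/FIH null cells (adjusted p = 0.00133) and by 0.45 ± 0.10 in VHL null cells (adjusted p = 0.00673), each against wild type. Scaling to the hybridization controls ended both calls (0.06 and 0.07).

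Kdm4b read 1901 and 1713 in VHL/FIH null, 1536 and 1334 in VHL null, 1213 and 1229 in FIH null and 968 and 1350 in wild-type cells (1424044_at). Among the brightest probe sets of the 10 genes, this pair of wild-type arrays differed most within a group, with an SD of 23.4% of their mean, and 1 of them lay above 1 of the VHL null arrays. Only the rise in VHL/FIH null cells passed (log2 difference 0.65 ± 0.16 SE, limma adjusted p = 0.00921), and the difference in VHL null cells was 0.32 with a 95% confidence interval of -0.03 to 0.67. The call in VHL/FIH null cells was lost without wild-type replicate 1 (0.41, adjusted p = 0.0761), without VHL/FIH null replicate 1 (0.58, adjusted p = 0.0565) and with scaling to the hybridization controls (0.13). In VHL null cells the gene passed without wild-type replicate 2 (0.56, adjusted p = 0.0244) and with quantile normalization (0.47, adjusted p = 0.0464).

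Kdm4a went the other way. Its brightest probe set (1435340_at) read 3565 and 3532 in VHL/FIH null, 2998 and 3220 in VHL null, 4434 and 4805 in FIH null and 4078 and 4595 in wild-type cells. Every VHL-deficient array was below every array of the other two groups. Against wild type, the limma log2 difference of Kdm4a was -0.29 ± 0.09 (SE) in VHL/FIH null cells, with an adjusted p of 0.027, and -0.48 ± 0.09 in VHL null cells, with an adjusted p of 0.00198. The call in VHL/FIH null cells was lost under 7 of 22 alternative settings, among them quantile normalization (-0.22, adjusted p = 0.0892) and leaving out wild-type replicate 2 (-0.20, adjusted p = 0.178), VHL/FIH null replicate 1 (-0.29, adjusted p = 0.0694) or VHL/FIH null replicate 2 (-0.28, adjusted p = 0.085). A second probe set, 1446699_at, read 12.5 to 247 and was not tested.

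Of the KDM5 genes, whose enzymes remove methyl groups from H3 lysine 4, Kdm5b rose and Kdm5a did not pass against wild type. Kdm5b read 4775 and 4783 in VHL/FIH null, 4047 and 4127 in VHL null, 2963 and 3055 in FIH null and 2396 and 3000 in wild-type cells (1427143_at). The 2 VHL-deficient groups overlapped neither each other nor the rest, whereas FIH null and wild-type arrays overlapped. Kdm5b was 1.78-fold higher in VHL/FIH null cells (log2 difference 0.83 ± 0.10 SE, limma adjusted p = 0.000143) and 1.52-fold higher in VHL null cells (0.61 ± 0.10, adjusted p = 0.00124), each against wild type. With scaling to the hybridization controls the rise passed in VHL/FIH null cells (0.31, adjusted p = 0.0276) and not in VHL null cells (0.23, adjusted p = 0.0982). Between VHL/FIH null and VHL null cells the difference was 0.22 with a 95% confidence interval of 0.00 to 0.45 (adjusted p = 0.123). A dimmer Kdm5b probe set, 1427142_s_at, was at 0.19 in VHL/FIH null and 0.37 in VHL null cells against wild type. It was at -0.18 between these groups, and none of the 3 differences passed. Averaging the gene's probe sets ended the call in VHL null cells (0.44, limma adjusted p = 0.0509) and kept that in VHL/FIH null cells.

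Kdm5a read 5103 and 5789 in VHL/FIH null, 5295 and 5745 in VHL null, 4316 and 4609 in FIH null and 4519 and 5311 in wild-type cells (1437105_at). The wild-type arrays overlapped those of every other group. The log2 difference from wild type was 0.15 in VHL/FIH null cells (95% confidence interval -0.07 to 0.37) and 0.17 in VHL null cells (-0.05 to 0.39), and VHL/FIH null cells were above FIH null cells by 0.28 ± 0.10 (SE, limma adjusted p = 0.0408), a call lost under 10 of 22 alternative settings. Scaled to the hybridization controls, Kdm5a passed as lower than wild type in VHL/FIH null cells (-0.37, adjusted p = 0.00922) and in FIH null cells (-0.39, adjusted p = 0.0204), and was at -0.21 in VHL null cells without passing. A dimmer Kdm5a probe set, 1437106_at, read 1612 and 2017 in VHL/FIH null, 1514 and 1979 in VHL null, 1240 and 1801 in FIH null and 704 and 1277 in wild-type cells. It passed in VHL/FIH null cells (0.91, adjusted p = 0.022) and in VHL null cells (0.86, adjusted p = 0.029), and lost both calls without wild-type replicate 1 (0.49 and 0.43). The first was also lost without VHL/FIH null replicate 2 (0.75) and the second without VHL null replicate 2 (0.66), and both with scaling to the hybridization controls (0.39 and 0.48).

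The KDM2 genes encode H3 lysine 36 demethylases with a zinc finger that binds unmethylated CpG islands, and KDM2B recruits a variant Polycomb complex there. By their brightest probe sets they moved in opposite directions. Kdm2a read 4216 and 4202 in VHL/FIH null, 4309 and 4061 in VHL null, 6661 and 6430 in FIH null and 5971 and 6033 in wild-type cells (1455942_at). Every VHL-deficient array was below every other array, and the VHL/FIH null arrays lay between the 2 VHL null arrays. Against wild type, the limma log2 difference of Kdm2a was -0.51 ± 0.07 (SE) in VHL/FIH null cells, with an adjusted p of 0.000268, and -0.52 ± 0.07 in VHL null cells, with an adjusted p of 0.000305. It was -1.03 and -0.90 with scaling to the hybridization controls. VHL/FIH null and VHL null cells differed by 0.01, with a 95% confidence interval of -0.14 to 0.16. Dimmer Kdm2a probe sets above the cutoff on every array had the other sign against wild type. Probe set 1435329_at was at 0.13 in VHL/FIH null and 0.19 in VHL null cells, and 1438890_at at 0.24 and 0.48. None of these differences passed.

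Kdm2b read 13282 and 14819 in VHL/FIH null, 14590 and 14229 in VHL null, 8728 and 8823 in FIH null and 11372 and 9601 in wild-type cells (1459861_s_at, a probe set whose suffix marks probes shared by several transcripts). The FIH null arrays were the lowest and the VHL-deficient groups, which overlapped, the highest. Kdm2b was 1.34-fold higher in VHL/FIH null cells (log2 difference 0.42 ± 0.08 SE, limma adjusted p = 0.00313) and 1.38-fold higher in VHL null cells (0.46 ± 0.08, adjusted p = 0.00203), each against wild type. In FIH null cells it was the 1 gene with an unadjusted p under 0.05 (log2 difference -0.25, 95% confidence interval -0.44 to -0.06, limma adjusted p = 0.144). Scaling to the hybridization controls ended both calls (-0.10 in VHL/FIH null and 0.08 in VHL null cells), and Kdm2b then passed as lower in FIH null cells (-0.51, adjusted p = 0.00372). Its other probe set, 1452198_at, had differences of 0.09 and 0.18 in the same 2 groups, and neither passed.

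Kdm6b, an H3 lysine 27 demethylase known in inflammation and differentiation, was higher by its brightest probe set when both VHL and FIH were absent. It read 7759 and 7618 in VHL/FIH null, 6486 and 6129 in VHL null, 5983 and 6640 in FIH null and 5814 and 6065 in wild-type cells (1456610_at). The VHL/FIH null arrays lay above all others, and the VHL null and FIH null arrays overlapped. The rise in VHL/FIH null cells passed against wild type (log2 difference 0.37 ± 0.07 SE, limma adjusted p = 0.00292), while the difference in VHL null cells was 0.09 with a 95% confidence interval of -0.08 to 0.25. With scaling to the hybridization controls the first difference turned to -0.15 and the second to -0.29, where Kdm6b passed as lower (adjusted p = 0.0151). Its dimmer probe sets 1447612_x_at and 1442643_at were at -0.15 and -0.07 in VHL/FIH null cells against wild type, and neither passed. No Kdm6b call held when its 3 probe sets were averaged (0.05 in VHL/FIH null cells against wild type, adjusted p = 0.702).

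For FIH loss added to VHL loss, VHL/FIH null were compared with VHL null cells, which are a separate line. The Vhl probe set was also higher in VHL/FIH null cells, by 0.41 ± 0.11 (SE, limma adjusted p = 0.0188). The comparison therefore does not isolate FIH loss. Here 2 of the 10 genes passed, both higher, where 35% of all tested genes passed and 20.7% were higher. Kdm3a was 1.35-fold higher (log2 difference 0.43 ± 0.07 SE, limma adjusted p = 0.00166) and Kdm6b 1.22-fold higher (0.29 ± 0.07, adjusted p = 0.0141). Kdm3a passed under all 22 alternative settings, though those on the choice of probe set could not alter the difference of its single one. The Kdm6b call was lost under 5, among them leaving out VHL/FIH null replicate 1 (0.27) or VHL null replicate 2 (0.24). The 95% confidence intervals of Kdm4b (-0.02 to 0.68) and Kdm5b (0.00 to 0.45) leave room for rises as large as that of Kdm3a, and that of Kdm4a (0.00 to 0.38) for a smaller one, so the misses do not show that these genes were alike in the 2 groups. After scaling to the hybridization controls 1 gene was higher and 1 lower: Kdm3a passed (0.29), Kdm6b did not (0.14, adjusted p = 0.269), and Kdm3b passed as lower (-0.33, adjusted p = 0.0207). Kdm5b passed without wild-type replicate 1 (0.22, adjusted p = 0.0495), and Kdm3b passed as lower without VHL/FIH null replicate 1 (-0.29, adjusted p = 0.037). The median difference was 0.17 for the 10 genes and 0.05 for all tested genes.

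The interaction asks whether VHL loss has another effect in cells without FIH than in cells with it. None of the 10 genes passed with limma, 1 had an unadjusted p under 0.05, and 19.1% of all tested genes passed. That gene was Kdm3a, whose VHL effect was larger without FIH by 0.30 on the log2 scale (95% confidence interval 0.07 to 0.53, adjusted p = 0.0824). Over the alternative settings its adjusted p ran from 0.0211 to 0.253, and it passed without VHL/FIH null replicate 2 (0.39, adjusted p = 0.0319), with scaling to the hybridization controls (0.41) and with a block on replicate number (0.30, adjusted p = 0.0439), numbers that do not pair the samples. In cells without FIH, the VHL/FIH null against FIH null comparison passed for 9 of the 10 genes, 7 higher and 2 lower, where 43.5% of all tested genes passed, 19.7% higher and 23.9% lower. Kdm3a was 2.24-fold higher there, Kdm2b 1.60-fold and Kdm5b 1.59-fold, while Kdm2a fell by 0.63 and Kdm4a by 0.38 on the log2 scale. Only Kdm3b did not pass (-0.06, 95% confidence interval -0.25 to 0.13). After scaling to the hybridization controls 6 genes passed in this comparison, 3 higher and 3 lower: Kdm3a (0.90), Kdm2b (0.41) and Kdm5b (0.40) rose, Kdm2a (-0.90), Kdm4a (-0.64) and Kdm3b (-0.32, adjusted p = 0.0128) fell, and Kdm4b, Kdm4c, Kdm5a and Kdm6b no longer passed. Of these calls, Kdm4b (0.56) was lost without either FIH null replicate or VHL/FIH null replicate 1 (adjusted p = 0.0758, 0.0672 and 0.0928), Kdm4a without FIH null replicate 2 (0.0611) and Kdm6b without FIH null replicate 1 (0.114).

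The 29 probe sets did not all tell the story of the brightest one. Of them 22 were tested, 20 were above the cutoff on every array, and the 7 that were not tested read 12.5 to 308. In VHL/FIH null against wild-type cells 9 of the 22 passed, 7 higher and 2 lower, where 34.1% of all tested probe sets passed. In VHL null against wild-type cells it was 8, 5 higher and 3 lower, where 35.3% passed. One of the 3 lower ones was Kdm2a probe set 1458449_at, which was above the cutoff on 0 of the 4 VHL-deficient arrays and was tested only through 1 wild-type and 2 FIH null arrays, so its call is not used. It read 240 and 43.7 in VHL/FIH null, 39.3 and 101 in VHL null, 328 and 296 in FIH null and 242 and 345 in wild-type cells. The brighter Kdm2a probe set 1435329_at read 2972 and 2931 in VHL/FIH null, 2913 and 3235 in VHL null, 2457 and 2634 in FIH null and 2722 and 2661 in wild-type cells, with VHL-deficient arrays above the rest and no difference that passed. Averaging the 4 tested probe sets, the dim 1458449_at among them, ended the Kdm2a calls against wild type (-0.36 in VHL/FIH null, adjusted p = 0.136, and -0.44 in VHL null cells, adjusted p = 0.0721). Kdm6b had probe sets that went apart: 1447612_x_at read 1287 and 948 in VHL/FIH null, 1024 and 980 in VHL null, 1602 and 1561 in FIH null and 1289 and 1171 in wild-type cells. It was highest in FIH null cells, and fell by 0.51 in VHL/FIH null against FIH null cells (limma adjusted p = 0.0217), where the brightest probe set rose by 0.29. The fall was not called without either FIH null replicate or VHL/FIH null replicate 2 (adjusted p at most 0.148). The files do not say which transcripts each probe set reads.

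**Figure D3:**
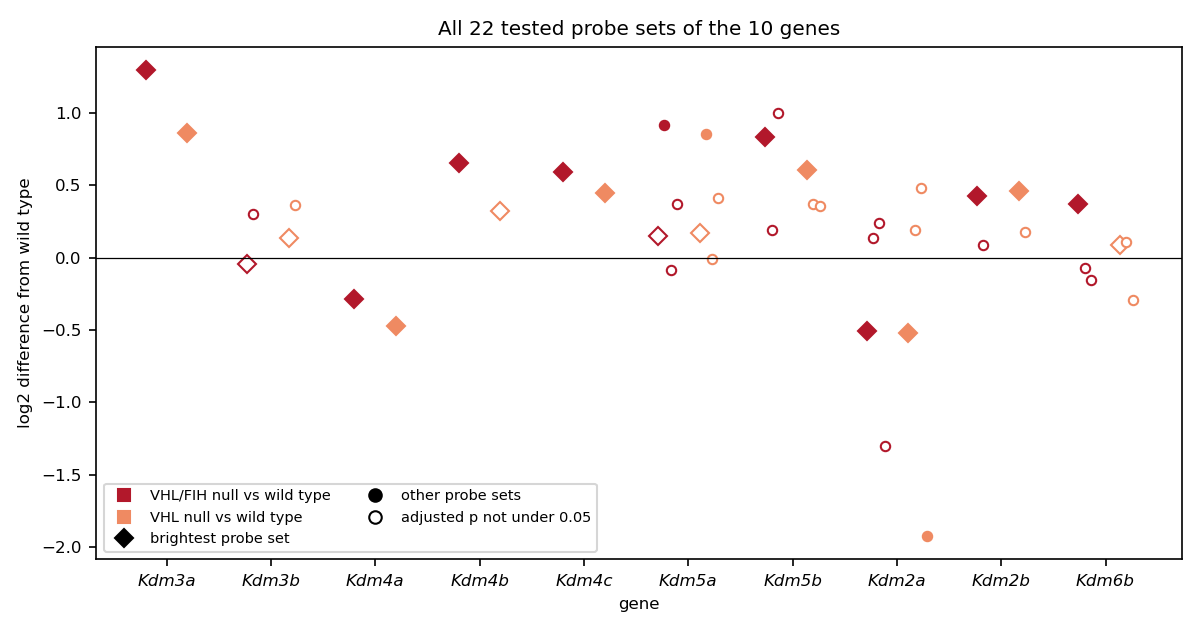
Log2 difference from wild type (y axis) of all 22 tested probe sets by gene (x axis), red for VHL/FIH null and orange for VHL null cells. Diamonds are the brightest probe set of each gene and circles the others, filled where the adjusted p was under 0.05. The lowest Kdm2a points belong to 1458449_at, which was above the cutoff on no VHL-deficient array, and the 3 probe sets of Kdm5b, of which 1457482_at was above the cutoff on only 2 arrays, lie above 0 in both groups with the signals as deposited.

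**Figure D4:**
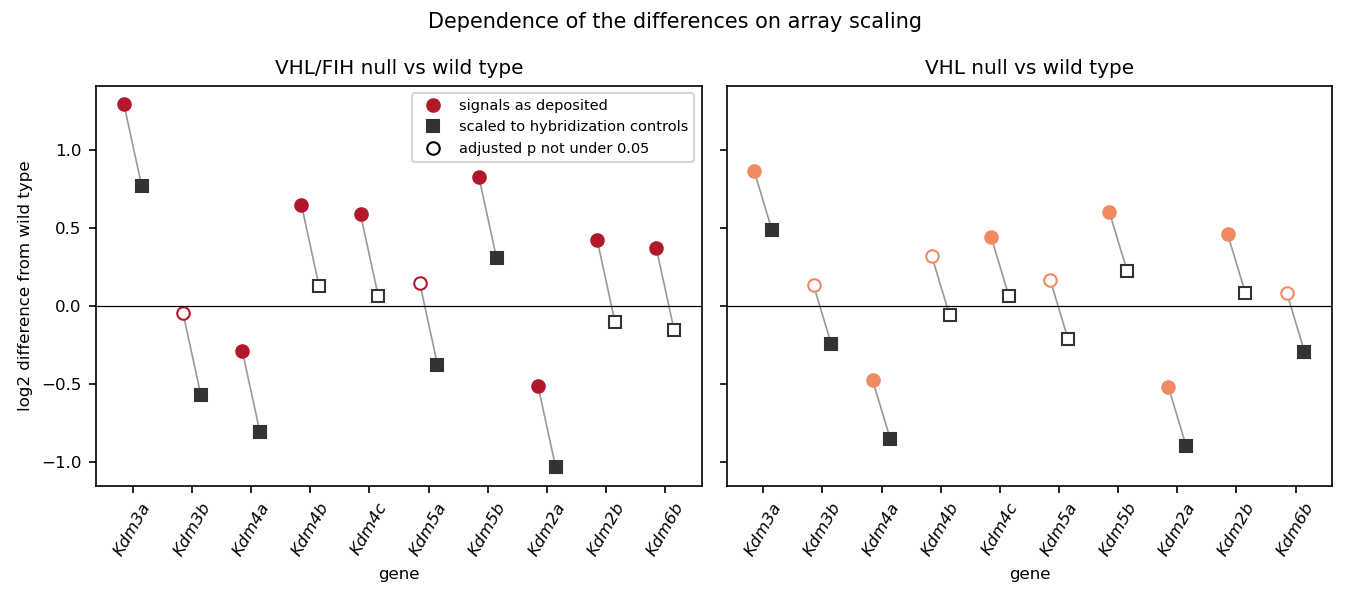
Log2 difference from wild type (y axis) of the 10 genes (x axis) with the signals as deposited (circles) and after scaling the arrays to the hybridization controls (squares), for VHL/FIH null cells on the left and VHL null cells on the right. Open symbols did not reach an adjusted p under 0.05. Kdm3a is above 0 and called under both, Kdm2a and Kdm4a are below 0 and called under both, and Kdm4c moves to 0.06 and 0.07.

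The tested genes whose log2 signal ran most like a member over the 8 arrays were found by Pearson's r, given as a description of 8 arrays that share 4 genotypes. For Kdm3a these were Bhlhe40 (r = 0.998), a basic helix-loop-helix repressor, Pfkfb3 (0.997), which makes the glycolytic activator fructose-2,6-bisphosphate, and Arhgef4 (0.995). For Kdm5b they were Foxo3 (0.993), a forkhead transcription factor, Endog (0.991), a mitochondrial endonuclease, and Asph (0.989), another 2-oxoglutarate oxygenase. Kdm4c ran most like 3000002C10Rik (0.992), Eid1 (0.987) and Fstl3 (0.983), and Kdm4b like Erc2 (0.952), Pdpr (0.943) and Rap1a (0.939). Kdm2a ran most like Egr1 (0.998), an immediate early transcription factor, Vangl2 (0.996), a planar polarity protein, and Ints6 (0.995). Among the members themselves, Kdm4c and Kdm5b had an r of 0.974, Kdm3a and Kdm4c 0.961, and Kdm2a and Kdm2b -0.957.

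For context, the same fit was read for related genes. The 12 HIF reference genes all rose, in VHL/FIH null cells with a median log2 difference of 2.12 and in VHL null cells with 1.69, each against wild type, and did so also with scaling to the hybridization controls. The strongest were Car9, carbonic anhydrase IX, at 5.66, Egln3, a HIF prolyl hydroxylase, at 4.76 and Ankrd37 at 3.81 in VHL/FIH null cells, and Egln3 at 2.77, the pyruvate dehydrogenase kinase Pdk1 at 2.65 and the mitophagy receptor Bnip3 at 2.54 in VHL null cells. In FIH null cells 4 HIF reference genes were higher and 1 lower, and 3 and 3 with scaling to the hybridization controls.

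Of the 19 other tested JmjC-domain genes 3 were higher and 5 lower in VHL/FIH null cells, with a median of -0.08. In VHL null cells 2 were higher and 5 lower, with a median of -0.03. These 8 and 7 calls are shares near the 39% and 41.4% over all tested genes. The lower genes of both groups include Hif1an, which was deleted in VHL/FIH null cells. Jmjd6, a lysyl hydroxylase of splicing factors, rose most, averaging 18137 ± 948 in VHL/FIH null and 17984 ± 405 in VHL null cells against 8481 ± 293 in wild-type cells (SD, n = 2 each, log2 differences 1.09 and 1.08). Jmjd1c, the third KDM3 relative, rose by 0.41 and 0.44 in these groups. Hspbap1 fell by 1.09 in VHL/FIH null and 0.70 in VHL null cells, Kdm8 by 0.77 and 0.52, and Phf2, an H3 lysine 9 demethylase, by 0.52 and 0.72. Of the Y-linked genes, Kdm5d averaged 1507 ± 201 in VHL/FIH null, 454 ± 61.8 in VHL null, 1610 ± 198 in FIH null and 1148 ± 106 in wild-type cells, while Uty averaged 2321 ± 253 in VHL/FIH null, 1337 ± 16.9 in VHL null, 1398 ± 103 in FIH null and 1570 ± 13.2 in wild-type cells. Both were higher in VHL/FIH null than in VHL null cells, by 1.70 for Kdm5d (limma adjusted p = 3.57e-05) and 0.78 for Uty (adjusted p = 0.000591), while against wild type Kdm5d passed as lower in VHL null cells and Uty as higher in VHL/FIH null cells. The 1 gene that passed in FIH null cells was the deleted Hif1an. With scaling to the hybridization controls the split was 1 higher and 13 lower in VHL/FIH null and 1 higher and 11 lower in VHL null cells.

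Enzymes that write or erase histone lysine methylation by other chemistry, not all on the same lysines, were read beside the shares over all tested genes. There, lower calls (22.3% in VHL/FIH null and 27% in VHL null cells) also outnumbered higher ones (16.7% and 14.4%). Of 25 histone lysine methyltransferases 2 were higher and 10 lower in VHL/FIH null cells, and 2 were higher and 11 lower in VHL null cells, with medians of -0.18 and -0.17. Kmt2e rose by 0.51 and 0.52 in these groups, and Ezh2, the H3 lysine 27 methyltransferase that opposes Kdm6b, rose by 0.32 in VHL/FIH null cells and fell by 0.17 in VHL null cells (limma adjusted p = 0.0388), with an interaction of 0.49 (adjusted p = 0.00229). Kmt5c, which methylates H4 lysine 20, fell by 0.77 in VHL/FIH null and 0.74 in VHL null cells, and Kmt5a by 0.69 and 0.45. Nsd1, an H3 lysine 36 methyltransferase, fell by 0.69 in VHL null cells. It averaged 3004 in VHL/FIH null, 2469 in VHL null and 3997 in wild-type cells. Of 9 amine oxidase demethylases and partners 0 were higher and 3 lower in VHL/FIH null cells and 2 higher and 4 lower in VHL null cells, and the 3 called in VHL/FIH null cells are a share near the 39% over all tested genes. The corepressor subunit Rcor3 fell by 0.48 and 0.95, and Kdm1b, a flavin-dependent H3 lysine 4 demethylase, by 0.28 and 0.70.

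The 16 subunits of variant PRC1 and of PRC2 had 4 higher and 0 lower calls in VHL/FIH null cells and 6 higher and 3 lower in VHL null cells, which became 0 and 14, and 0 and 10, with scaling to the hybridization controls. Eed, the PRC2 subunit that reads trimethylated lysine 27, rose by 0.50 and 0.34, Bcor, a variant PRC1 subunit that works with KDM2B, rose by 0.55 in VHL/FIH null cells, and Yaf2, another variant PRC1 subunit, rose by 0.61 in VHL null cells, where the ubiquitin ligase Ring1 fell by 0.53. Of 11 other 2-oxoglutarate dioxygenases of nucleic acids 2 were higher and 3 lower in VHL/FIH null cells. In VHL null cells 1 was higher and 2 lower. Over all tested genes 39% passed in VHL/FIH null and 41.4% in VHL null cells. Alkbh5, an RNA demethylase of N6-methyladenosine, rose by 0.58 and 0.65 in these groups, and Alkbh8 by 0.48 in VHL/FIH null cells. Alkbh7 fell by 0.64 and 0.34, Fto by 0.27 and 0.31, and Alkbh6 by 0.38 in VHL/FIH null cells. No gene of these 4 lists passed in FIH null cells with limma, and an unadjusted p under 0.05 was reached there by 5 methyltransferases, 0 amine oxidase genes, 1 Polycomb gene and 3 nucleic acid dioxygenases. With scaling to the hybridization controls the methyltransferases split into 0 higher and 23 lower in VHL/FIH null cells and 0 and 22 in VHL null cells, the amine oxidase list into 0 and 8, and 0 and 6, and the nucleic acid dioxygenases into 0 and 7, and 1 and 6.

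**Figure D5:**
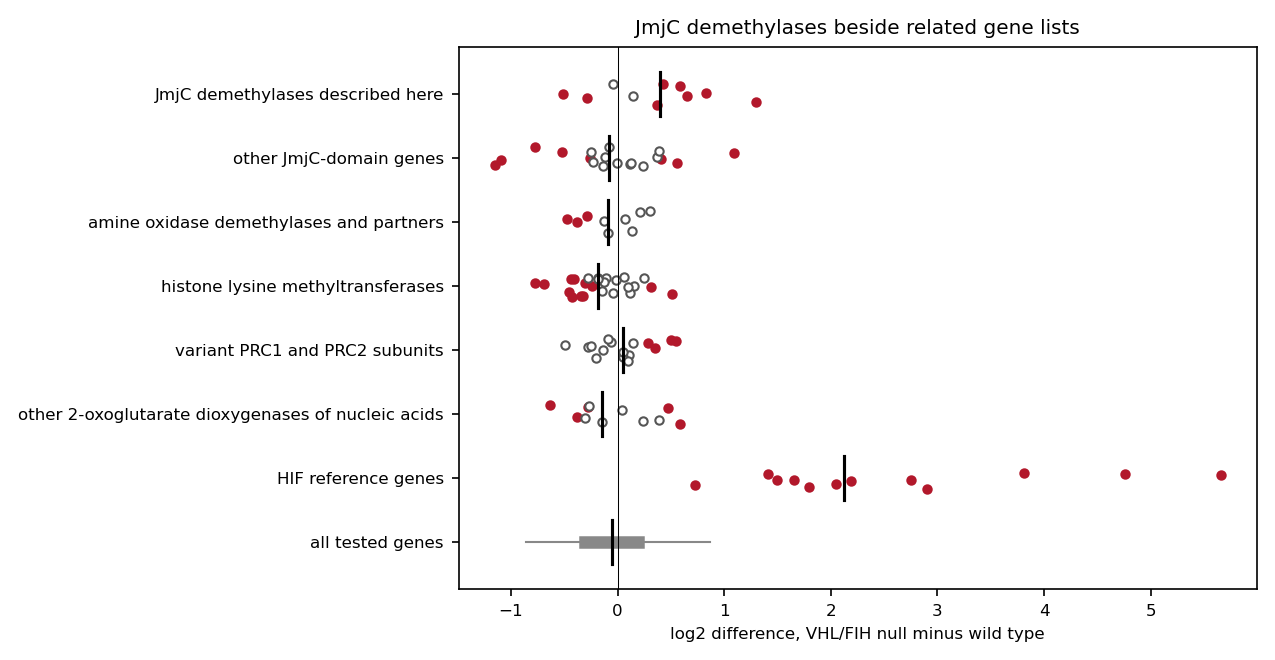
Log2 difference, VHL/FIH null minus wild type (x axis), of each tested gene in 7 gene lists (rows), filled red where the adjusted p was under 0.05 and open where it was not, with the list's median as a vertical bar. The bottom row gives all tested genes, the thick bar spanning the middle 50% and the thin line the middle 90%. The JmjC demethylases have a median of 0.40, the HIF reference genes 2.12 and all tested genes -0.05.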

How the data were processed

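The deposited intensity values are MAS5 signals, as the submitters' processing notes name the tool, and its version and settings are not given in the sources used here. Of 45101 probe sets 64 were controls, 34945 carried 1 gene symbol in the platform annotation, 932 carried several, and for 9160 no symbol was listed. A probe set shared by Kdm6b and another gene was kept apart. The signals, without further normalization, were put on a scale of log2(signal + 16). Group means were fitted in 1 limma model (version 3.58.1, R 4.3.3) using lmFit and eBayes with a variance trend, which gave 4 residual and 6.42 prior degrees of freedom, and 6 contrasts were tested two-sided at an adjusted p of 0.05. The procedure was tested on simulated data. Array medians ran from 281.7 to 307.5, and the number of arrays limits the precision. The labels name no batch. The member genes and the related lists were chosen with earlier results of these data known. Named from each list were up to 3 genes per direction with the largest change past the threshold, and likeness was given for members that passed with a log2 change of at least 0.5. Alternatives were the pseudocount, the filter, the scaling, the variance model, the choice of probe set, a block on replicate number, leaving out each array and a 2-fold minimum.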

Additional observations from a re-analysis of the deposited data

Results flagged for a closer look

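One signal lies outside the probe sets of the 10 genes. Probe set 1440346_at is given by the annotation to both Kdm6b and 1700064E03Rik, and its signal was above that of the wild-type controls. It read 4199 and 4387 in VHL/FIH null, 3148 and 3240 in VHL null, 2355 and 2534 in FIH null and 2254 and 2451 in wild-type cells, so both VHL-deficient groups lay above all other arrays and did not overlap each other. The group means were 4293 ± 133 in VHL/FIH null and 3194 ± 64.6 in VHL null cells, against 2353 ± 139 in wild-type cells (SD, n = 2 each). The log2 difference from wild type was 0.86 ± 0.09 (SE, limma adjusted p = 3.3e-05) in VHL/FIH null and 0.44 ± 0.09 (adjusted p = 0.00294) in VHL null cells, and VHL/FIH null exceeded VHL null cells by 0.42 (adjusted p = 0.00405). The brightest probe set of Kdm6b alone differed from wild type by 0.37 and 0.09 in the same groups. Which of the 2 genes the shared probe set reads was not tested.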

How the results depend on the processing

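Of the 25 gene results that passed, 7 kept their direction and their call under all 22 alternative settings other than the 2-fold minimum: Kdm3a in its 4 called comparisons, Kdm4a in VHL null and Kdm5b in VHL/FIH null cells against wild type, and Kdm2b in VHL/FIH null against FIH null cells. Scaling to hybridization controls ended or turned 12. Averaging a gene's probe sets, in which dimmer ones count equally, ended or turned 9. Kdm3a, Kdm4a, Kdm4b and Kdm4c have 1 tested probe set each. Settings that average or choose among probe sets could therefore not change their log2 differences, and their keeping a call under these settings is no support. With 2 arrays a group the depth of replication limits every call, and dim probe sets near the cutoff most. The causes of the changes between settings were not tested. Replicate numbers did not pair the samples (r between groups of the difference of replicates -0.02 to 0.03, 6 pairs of groups), which share only a number. The replicate block changed 1 of 60 gene results: Kdm3a became called in the interaction (1 gene and 1 probe set called, none without it), and 1 probe set was called in FIH null against wild type.

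In VHL null against wild-type cells the count of called member probe sets, 8, became 5 with a stricter filter (75th percentile of signal), 13 with quantile normalization and 1 with the 2-fold minimum, under which 0 genes passed. In VHL/FIH null against wild-type cells 1 probe set and 1 gene passed the 2-fold minimum, and against FIH null cells likewise 1 and 1. In VHL/FIH null against VHL null cells 0 passed it, 1 gene and 1 probe set passed without the variance trend, and 1 gene passed with averaged probe sets. Averaging left 5 genes in VHL/FIH null against FIH null cells. Scaling to hybridization controls gave 4 probe sets and 2 genes in FIH null against wild type, and 1 and 1 in the interaction. Leaving out each array in turn gave 1 to 3 genes and 1 to 3 probe sets in VHL/FIH null against VHL null cells, 6 to 10 probe sets in VHL/FIH null against FIH null cells, where 6 came without either FIH null replicate, and 0 to 1 in the interaction. The 1 gene in VHL/FIH null against VHL null cells came without VHL null replicate 2.

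Log2 differences changed sign as follows. With scaling to hybridization controls, VHL/FIH null minus wild type became -0.10 for Kdm2b, -0.37 for Kdm5a and -0.15 for Kdm6b. VHL null minus wild type became -0.24 for Kdm3b, -0.058 for Kdm4b, -0.21 for Kdm5a and -0.29 for Kdm6b. FIH null minus wild type became -0.13 for Kdm2a and Kdm3a, -0.25 for Kdm3b, -0.17 for Kdm4a, Kdm4b and Kdm6b, -0.12 for Kdm4c and -0.094 for Kdm5b. VHL/FIH null minus VHL null became -0.14 for Kdm2a and -0.0034 for Kdm4c, and VHL/FIH null minus FIH null -0.063 for Kdm2b probe set 1452198_at. With averaged probe sets, Kdm6b became -0.033 in VHL null and Kdm5a 0.19 in FIH null cells against wild type, Kdm3b 0.13 in VHL/FIH null against wild type and 0.12 against FIH null cells, and Kdm6b -0.13 against FIH null cells. Interactions then became 0.050 for Kdm2a, -0.21 for Kdm5a, -0.093 for Kdm5b and -0.096 for Kdm6b. With quantile normalization and median centring, Kdm3b became 0.013 and 0.022 in VHL/FIH null against wild type, Kdm2a -0.031 and -0.0039 against VHL null, and the Kdm4c interaction -0.10 and -0.10. Median centring also turned the interactions of Kdm4a to -0.0070 and Kdm5b to -0.045.

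Leaving out each array gave ranges that cross 0: VHL/FIH null minus wild type -0.16 to 0.064 for Kdm3b; VHL/FIH null minus VHL null -0.034 to 0.051 for Kdm2a, -0.12 to 0.041 for Kdm2b and -0.11 to 0.070 for Kdm5a; VHL/FIH null minus FIH null -0.17 to 0.051 for Kdm3b. FIH null minus wild type ranged from -0.024 to 0.050 for Kdm3b and -0.14 to 0.33 for Kdm4b, and the interaction from -0.074 to 0.084 for Kdm4c, -0.0023 to 0.23 for Kdm5a and -0.10 to 0.22 for Kdm5b.

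Related lists moved mainly with scaling. Under it the number of calls against wild type in VHL/FIH null, VHL null and FIH null cells became 14, 12 and 7 for other JmjC-domain genes, 23, 22 and 5 for methyltransferases, and 8 in VHL/FIH null and 6 in FIH null cells for amine oxidases. It became 14 in VHL/FIH null and 7 in FIH null cells for Polycomb subunits, and 7 in VHL null and 7 in FIH null cells for nucleic acid dioxygenases. With the 2-fold minimum 3, 2 and 0 other JmjC-domain genes passed in the 3 null groups, 1 HIF reference gene in FIH null cells, and 0 of the amine oxidase, methyltransferase, Polycomb and nucleic acid dioxygenase genes. In FIH null cells median centring gave 2 methyltransferases and 1 Polycomb gene, array weights and averaged probe sets 1 methyltransferase each, and no variance trend 3 HIF reference genes. Averaged probe sets gave 1 amine oxidase gene in VHL/FIH null and 5 nucleic acid dioxygenases in VHL null cells. Leaving out each array gave 1 to 3 amine oxidase genes and 3 to 5 nucleic acid dioxygenases in VHL/FIH null cells, and 7 to 13 methyltransferases in VHL null cells, 7 being without wild-type replicate 1.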
